A study of Rattus norvegicus with 18 samples.

Results

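The 6 unexposed control cultures of a rat astrocyte study carry 2 different source labels, and they are compared here with each other. The source field of controls 1 and 2 reads cerebral cortex, and only their titles call them astrocytes. For controls 3 to 6 it reads cortical type-I astrocytes. The sets were formed from these labels alone, so they hold 2 and 4 of the 6 controls, among 18 arrays in all. All 6 controls were grown on laminin and nitrocellulose without the beta-amyloid peptide fragment of residues 25 to 35, and total RNA was measured on arrays of neurobiology genes. The other 12 arrays, 3 each at 12 hours, 1 day, 3 days and 5 days on the immobilized peptide, carry the type-I label. The labels give no animal age, time in culture, passage or preparation for any control, and do not say that the arrays come from separate cultures. P-values therefore measure the spread between these arrays, which may be technical. The source label cannot be told apart from anything else that separated the arrays of the 2 sets.

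Astrocytes take up transmitter glutamate, turn it into glutamine, buffer ions, secrete growth factors and matrix proteoglycans, and are coupled by gap junctions. Type-I astrocytes are the flat cells that dominate cultures of newborn rat cortex. Such cultures can also hold oligodendrocyte precursors, microglia, meningeal cells and a few neurons, and astrocytes themselves express many receptors and channels that are better known from neurons.

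The deposited signals had been scaled, with a 2% trimmed mean of 502.11 to 502.632 and a median of 103.15 to 130.95 on the controls. Between 6.02% and 10.4% of probe sets per control lay at or under a floor of 10.9, which is the 10th percentile of the table and the value to which lower signals were set. Of 1263 probe sets that are no array controls, 23 were at the floor on all 6 arrays, and the other 1240 were tested.

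The labelled cell type was checked against 10 measured astrocyte genes. No probe set carries the symbol Gfap or Aqp4 in the annotation used here, but 118 probe sets have no symbol, so it cannot be said that these genes were not measured. Vim, an intermediate filament gene of astrocytes and also of mesenchymal cells, had signals of 14574.7 and 18647.7 on controls 1 and 2 and of 8770.4 to 16452.6 on controls 3 to 6. Glul, which makes glutamine from glutamate, had 11456.1 and 5504.1 against 5569.9 to 9650.4. Both genes were bright in both sets, and their ranges overlapped. Not all other members followed them. Of the 22 probe sets of the 10 genes, 7 were lower in controls 1 and 2 without overlap and 1 was higher. Of all 1240 tested, 34.8% did not overlap, with 16% lower and 18.8% higher. The glutamate transporter Slc1a3 was called lower and the connexin Gja1 higher, and S100b and Mt3 had differences of -3.40 and -2.31 that did not pass. The only measured microglia gene, Itgam, had 51.0 and 57.9 against 37.3 to 65.8. Summed over the 13 probe sets of 6 oligodendrocyte and myelin genes, the signal was 2460.5 to 2523.6 against 1556.4 to 2583.5.

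Arrays of 1 set were more alike than arrays of different sets. Over the 1240 probe sets, Pearson's r of log2 signal was 0.94 between controls 1 and 2, 0.92 to 0.97 for the 6 pairs within controls 3 to 6, and 0.84 to 0.88 for the 8 pairs across the sets. These correlations are across genes, which are not independent replicates. The share of probe sets that differed by over 2-fold was 18.8% between controls 1 and 2, 12.2% to 21.9% within the other set, and 26.2% to 31.4% across. The difference between the sets took 55.8% of the total sum of squares of the 6 controls, the spread between controls 1 and 2 took 12.1%, and the spread among controls 3 to 6 took 32.1%. Control 3 was the least like the others of its set, with r of 0.92 to 0.94, against 0.95 to 0.97 among controls 4 to 6.

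**Figure D1:**
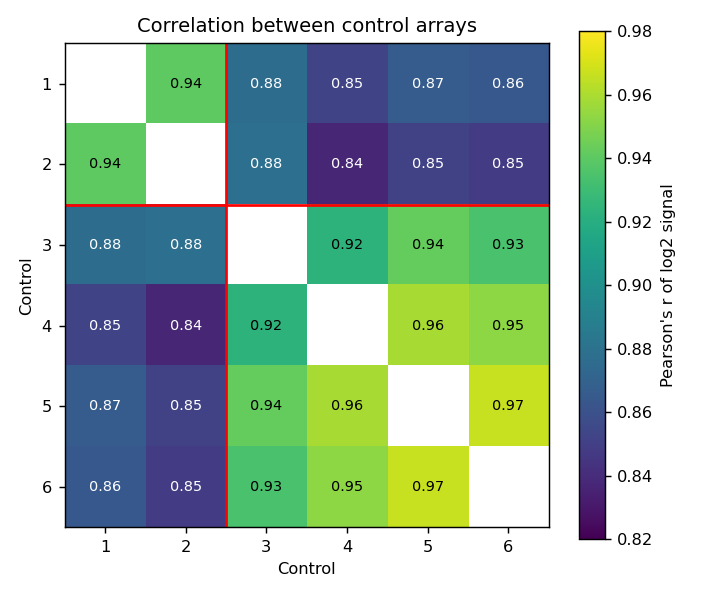
Pearson's r of log2 signal over 1240 probe sets for each pair of the 6 controls, with red lines between controls 1 and 2 and controls 3 to 6. Pairs within a set lie at 0.92 to 0.97 and pairs across the sets at 0.84 to 0.88.

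Baseline expression differed between the sets in both directions among glial, neuronal and growth factor genes. Few channel genes were called, and all of these were lower in controls 1 and 2. Controls 1 and 2 had far more signal for the forkhead gene Foxd1, the hormone genes Sst and Gal, the growth factor Igf2 and the protease Ctsk. They had far less for the calcium channel subunit Cacna2d1, the growth factor carrier Igfbp3, the kinase Prkcb, the proteoglycan Ncan, the AMPA receptor subunits Gria2 and Gria3, and Cntf, a trophic factor that astrocytes make. In limma on the 6 controls, 94 of 1240 probe sets passed an adjusted p of 0.05, which is 7.58%. Of these, 39 (3.15%) were higher in controls 1 and 2 and stood for 33 named genes, and 55 (4.44%) were lower and stood for 36. Another 5 of the 94 had no single gene symbol. The called differences ran from -6.47 to 5.76 on the log2 scale, and none was smaller than 0.99 in size.

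Among the 5 calls without a symbol were some of the widest gaps, and they are given by the array maker's probe set name only. AF028784mRNA#1_s_at had 547.5 and 202.4 on controls 1 and 2 and 6740.7, 13241.4, 12624.1 and 12879.3 on controls 3 to 6. It was 33.0-fold lower, and limma's adjusted p was 0.00164. AF028784cds#1_s_at, which bears the same sequence name, had 109.7 and 51.3 against 1270.4, 6983.9, 6352.5 and 7226.9, 59.9-fold lower. On both, control 3 was the lowest of its set and still well above controls 1 and 2. The first kept its call without any 1 control, and the second lost it without control 1 or control 2, with an adjusted p of up to 0.077. AB016161UTR#1_g_at was lower by 2.37, and L09653_s_at and S67770_at were higher by 2.32 and 3.00, and all 3 kept their calls without any 1 control.

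An unadjusted p under 0.05 was reached by 300 probe sets, where 62 would be expected by chance. The 2 sets did not overlap in 431 probe sets (34.8%), of which 233 (18.8%) were higher and 198 (16%) lower in controls 1 and 2, and all 94 calls were among the 431. With 2 arrays against 4 an exact permutation test could not go below p = 0.0667, so single genes rest on limma's shared estimate of spread. The median difference of all 1240 was -0.03. Of the 94 calls, 40 held whichever single control was left out. Leaving out control 1 or control 2 leaves 1 array in that set, which limma then assumes to vary like the other set, and the count fell to 60 without control 1 and 55 without control 2. It was 61 without control 5 and 66 without control 6. With the spread taken from all 18 arrays, 62 of the 94 passed. Named genes that lost the call on the probe set described include Ncan, Sst, Foxd4, Agtr1a, Gja1, Slc1a3, Npy, Penk, Ntf4, Gabbr2, Nefl, Asic2, Htr5b, Tgfa, Syt11, Sod3, Tph1 and Ghr. This spread includes that of the exposed arrays, which at 1 day and 3 days differed widely among themselves for some of these genes. At 1 day Ncan ran from 25.4 to 3314.9 with a median of 3225.9, and Sst from 12.4 to 1414.6 with a median of 25.4.

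**Figure D2:**
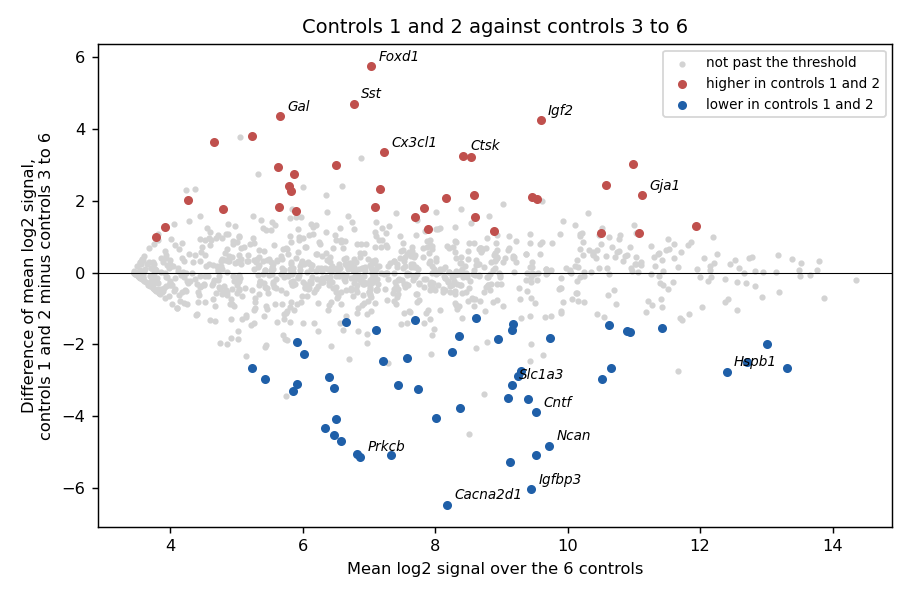
Difference of mean log2 signal between controls 1 and 2 and controls 3 to 6, against the mean log2 signal over the 6 controls, for tested probe sets with 1 gene symbol. Red and blue points passed an adjusted p of 0.05 in limma, and they lie at 0.99 or more from 0 on both sides, up to Foxd1 at 5.76 and down to Cacna2d1 at -6.47.

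The largest difference upward was that of Foxd1. This forkhead factor gene had signals of 1807.5 and 1942.8 on controls 1 and 2, and of 27.8, 36.4, 37.1 and 38.2 on controls 3 to 6. The values of the 2 sets lie far apart, with little spread inside either. The difference was 5.76 ± 0.24 (SE) on the log2 scale, 54.2-fold, with a limma adjusted p of 6.99e-05. Foxd3 had 1602.0 and 1677.6 against 164.6 to 202.5, a difference of 3.21, and Foxd4 had 299.8 and 159.1 against 12.9 to 20.7, a difference of 3.81. All 3 probe sets carry the suffix that the array maker gave to sets matching several members of a family, so their signals cannot be assigned to single Foxd genes with certainty. Cited2, a coactivator that binds CBP and p300, had 9992.3 and 6792.0 against 536.2 to 1509.0, 8.12-fold higher with a limma adjusted p of 0.00927. Rest, which represses neuronal genes in other cells, was also called higher, by 1.83. Among the lower genes was Pou3f3, a POU factor of the developing cortex, at -3.50. Cited2 lost its call without control 1 or control 2, with an adjusted p of up to 0.0969. Foxd1, Foxd3, Foxd4, Rest and Pou3f3 kept theirs without any 1 control.

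The sequence just before the start of 4 genes that differed is shown, and the genes stand for both directions. They were chosen because these windows hold letters like a recognition sequence of factors that respond to growth factors or cyclic AMP. The windows come from RefSeq on GRCr8 and run from 250 bases before to 10 after the annotated start, 5′ to 3′. Capitals mark matches to the loose AP-1 pattern TGANTCA in Foxd1, Gja1 and Cntf, and the cyclic AMP response element TGACGTCA in Sst. The AP-1 search allowed any base at the letter N. That base was T in Foxd1 and G in Gja1 and Cntf. Foxd1, Sst and Gja1 were higher in controls 1 and 2, and Cntf was lower.
Foxd1 (chr2:31436552-31436811, plus strand): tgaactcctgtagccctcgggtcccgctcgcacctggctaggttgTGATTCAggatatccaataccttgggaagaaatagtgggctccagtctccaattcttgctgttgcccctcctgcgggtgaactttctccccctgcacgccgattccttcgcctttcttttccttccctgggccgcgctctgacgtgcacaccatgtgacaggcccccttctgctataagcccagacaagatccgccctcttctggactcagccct
Sst (chr11:90461296-90461555, plus strand): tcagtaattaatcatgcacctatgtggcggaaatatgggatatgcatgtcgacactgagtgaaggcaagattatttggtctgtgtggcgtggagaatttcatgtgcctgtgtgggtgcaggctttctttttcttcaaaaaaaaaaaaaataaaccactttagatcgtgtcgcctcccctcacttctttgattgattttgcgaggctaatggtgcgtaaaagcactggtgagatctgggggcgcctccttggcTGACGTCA
Gja1 (chr20:36302314-36302573, plus strand): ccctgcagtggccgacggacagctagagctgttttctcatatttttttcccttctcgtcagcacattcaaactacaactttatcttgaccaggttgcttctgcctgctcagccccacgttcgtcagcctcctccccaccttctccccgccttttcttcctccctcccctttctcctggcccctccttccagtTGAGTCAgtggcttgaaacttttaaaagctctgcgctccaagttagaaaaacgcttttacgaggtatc
Cntf (chr1:219314526-219314785, minus strand): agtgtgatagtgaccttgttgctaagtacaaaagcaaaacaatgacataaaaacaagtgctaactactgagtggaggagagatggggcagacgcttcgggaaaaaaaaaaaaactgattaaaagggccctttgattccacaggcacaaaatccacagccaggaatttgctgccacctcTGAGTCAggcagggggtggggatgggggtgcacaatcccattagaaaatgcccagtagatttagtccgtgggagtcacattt

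The AP-1 letters begin 205 bases before the start in Foxd1, 58 before in Gja1 and 72 before in Cntf, and the cyclic AMP element of Sst begins at base 3 after the annotated start. Both strands were searched, and neither motif contains the other. AP-1 letters were in 4 of 30 windows of the higher genes (Foxd1, Gja1, Rest and Tph1), in 1 of 27 of the lower genes (Cntf), and in 6.64% of all 27457 windows. The cyclic AMP element was in 2 of 30 (Foxd3 and Sst), in 0 of 27, and in 1.78% of all. These are matches of letters and no measured binding.

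**Figure D3:**
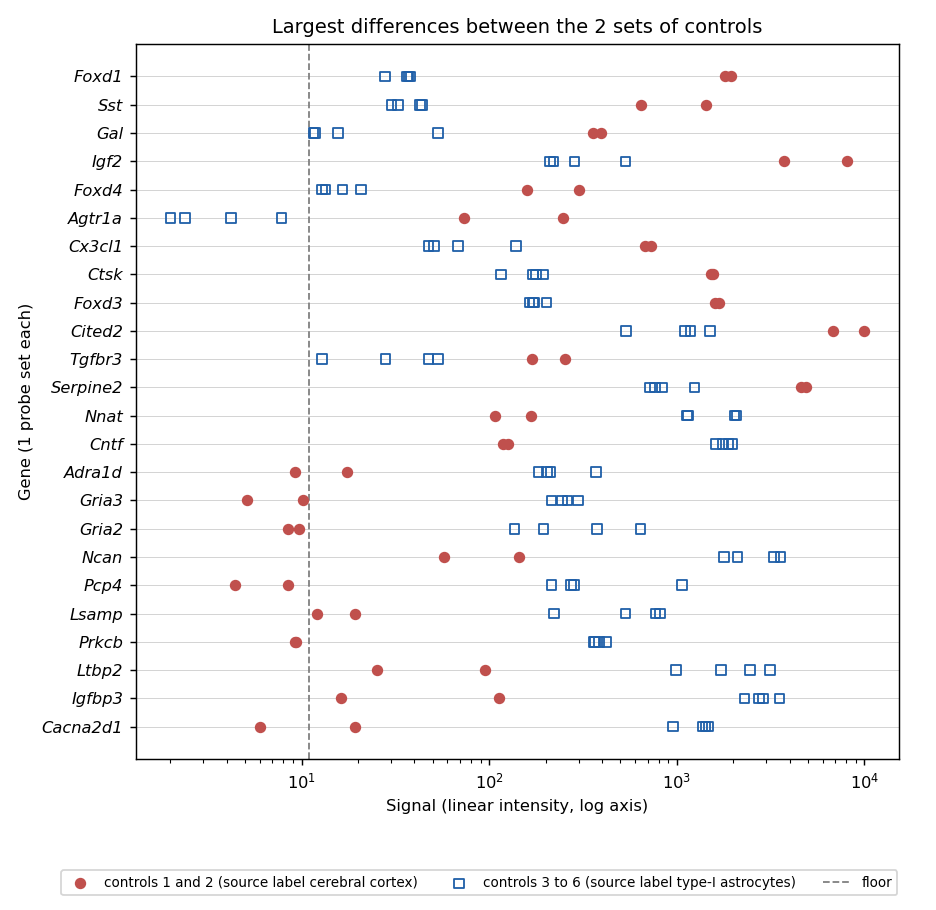
Signal on a log axis of the 12 genes with the largest called differences in each direction, 1 probe set each, on controls 1 and 2 (red circles) and controls 3 to 6 (blue squares), with the floor of 10.9 dashed. In every gene shown the 2 sets are separate, from Foxd1 at the top (1807.5 and 1942.8 against 27.8 to 38.2) to Cacna2d1 at the bottom (19.3 and 6.0 against 956.6 to 1475.8).

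Among astrocyte genes the glutamate transporter and the gap junction gene differed in opposite directions. Of 22 probe sets of 10 genes, 3 were called lower in controls 1 and 2, all of Slc1a3, and 1 was called higher, of Gja1. These are 18.2%, beside 7.58% of all tested. The median difference of the list was -0.36, and its summed signal of 40947 to 54132 lay inside the 35891 to 58267 of controls 3 to 6. Bright probe sets such as those of Vim and Glul weigh most in that sum, so it says little about dimmer members. Slc1a3, which clears glutamate from around synapses, had on its brightest probe set 533.3 and 259.8 against 1556.2, 3927.7, 3215.0 and 3560.1. Control 3 was the lowest of its set and still above both cortex-labelled controls. The difference was -2.96 ± 0.48 (SE), and limma's adjusted p was 0.0138. The other called probe sets of Slc1a3 had -3.12 and -2.47, while a dim probe set at 19.5 to 56.1 did not pass. Gja1, the gene of connexin 43, had 4269.5 and 8604.3 against 810.6, 1893.3, 1504.3 and 1488.6, a difference of 2.15 ± 0.44 (SE) with a limma adjusted p of 0.0343. Without control 1 or control 2, this Slc1a3 probe set and Gja1 lost their calls, with adjusted p-values of up to 0.101 and 0.178, and Gja1 also lost it without control 5 or control 6. The other called Slc1a3 probe sets were lost in the same cases and also without control 6, and the dimmer of them also without control 4 or control 5, with adjusted p-values of up to 0.184. With 1 control left out the differences ran from -3.54 to -2.24 over the 3 called Slc1a3 probe sets and from 1.65 to 2.66 for Gja1. In bulk samples, fewer cells of a type and less RNA per cell cannot be told apart.

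The other astrocyte genes did not pass. S100b, a calcium-binding protein, had 401.2 and 19.7 against 661.8 to 1209.0 on its brighter probe set, with a limma adjusted p of 0.110. Controls 1 and 2 were both lower but differed widely from each other. The brain metallothionein Mt3 had 473.7 and 156.4 against 694.5 to 2001.0, with a difference of -2.31 and an adjusted p of 0.0643. Apoe, the lipid carrier, had 3291.1 and 956.1 against 1301.8, 4312.6, 4392.7 and 5594.4 on its brighter probe set, so that controls 2 and 3 were low across the label. Vim had a difference of 0.32 with a 95% interval of -0.45 to 1.10, and the brightest Glul probe set had 0.01 with -0.91 to 0.93. Slc1a2, the other main glial glutamate transporter, had 80.7 and 89.7 against 36.5 to 107.4, with a difference of 0.12. In the glutamate handling list, which shares Slc1a3, Slc1a2 and Glul with the astrocyte list, the 3 calls among 18 tested probe sets were those of Slc1a3. That is 16.7%, beside 7.58% of all tested.

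Of 15 matrix and adhesion genes, the glial proteoglycans Ncan and Bcan and the adhesion gene Ncam1 were called lower in controls 1 and 2, and Cdh6 was called higher. The other 11 genes did not pass. Of 20 tested probe sets, 5 were called lower and 1 higher, 30% beside 7.58% of all tested, with a median of -0.67. The summed signal of 4713.0 to 7280.5 did not overlap the 14032 to 17067 of controls 3 to 6. Ncan, the proteoglycan neurocan, had 145.2 and 57.3 against 1788.3, 2104.9, 3575.9 and 3292.2, 28.3-fold lower, and limma gave an adjusted p of 0.00167. The second Ncan probe set had -3.77. Its separation was complete on both probe sets. Bcan, the related proteoglycan brevican, had 182.0 and 172.8 against 542.5 to 2235.0, a difference of -2.75. Ncam1, a neural cell adhesion molecule, was lower by 1.66 and 1.45 on 2 probe sets. Cdh6, a cadherin, went the other way, with 305.7 and 333.6 against 58.2 to 143.5. Bcan, Ncam1 and Cdh6 lost their calls without control 1, control 2, control 5 or control 6, and Cdh6 also without control 4, with adjusted p-values of up to 0.159, 0.137 and 0.160 and differences of -3.13 to -2.44, -1.99 to -1.32 and 1.63 to 2.06. Ncan kept its call without any 1 control, but its adjusted p on the brighter probe set was 0.116 when the spread was taken from all 18 arrays.

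Of the neuron markers, Map2 was called lower in controls 1 and 2. Of 23 probe sets of 11 neuron markers, 3 were called lower, all of Map2, and 1 higher, of Nefl, 17.4% beside 7.58% of all tested. The median was -0.41, and 5 were lower and 2 higher without overlap, beside 16% and 18.8% of all tested. The summed signal was 4521.8 to 4875.6 in controls 1 and 2 and 5828.8 to 8542.2 in controls 3 to 6, without overlap. Map2, a microtubule protein of neuronal dendrites, had 74.0 and 31.1 against 444.3, 631.9, 582.5 and 257.6 on the brightest of its called probe sets, a difference of -3.24 ± 0.50 (SE) with a limma adjusted p of 0.0109. Another called probe set of Map2, with a difference of -3.10, kept its call without any 1 control, while the first lost it without control 2, with an adjusted p of 0.0842 and a difference in the range of -3.86 to -2.61. The remaining called probe set of Map2 had controls 1 and 2 under the floor, a difference of -2.67 and a limma adjusted p of 0.0482. It lost its call without any control other than control 6. It also lost it with each of the other scalings, with the higher floor and with the spread of all 18 arrays. The Map2 probe sets that were not called overlapped between the sets. One had signals of 42.9 to 137.9 over all 6 controls. The other had a difference of -2.07 with a limma adjusted p of 0.186. Nefl, the light neurofilament chain, had 50.7 and 78.0 against 13.6 to 22.1 on the called probe set, but 72.5 and 153.1 against 111.5 to 159.1 on its brighter one, so its probe sets disagree, and the call was lost without control 1, 2 or 6 (adjusted p up to 0.109). Syn1 and Snap25, which serve transmitter release, had 245.8 and 337.5 against 327.0 to 406.3, and 81.9 and 94.5 against 97.3 to 186.3 on the brighter probe set, and neither passed. Nefm had 53.1 and 28.3 against 52.4 to 98.1. Among 38 tested probe sets of 28 vesicle release genes only Syt11 was called, at -1.31, and it lost the call without any 1 of controls 1, 2, 4, 5 and 6, with an adjusted p of up to 0.190.

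Several genes of neuronal surface and signalling proteins outside the marker list were among the largest differences. Prkcb, a protein kinase C, had 9.3 and 9.2 against 385.4, 362.1, 422.5 and 367.0, so that both cortex-labelled controls were under the floor. The gene was at least 35.2-fold lower in them, and limma's adjusted p was 6.99e-05. Its other probe sets had -4.06 and -2.38 and were called too. Lsamp, a cell adhesion molecule of the limbic system, had 12.1 and 19.2 against 221.1 to 816.2. Pcp4, a calmodulin-binding peptide, had 8.5 and 4.4 against 214.6 to 1064.7, at least 33.5-fold lower. Nnat, an imprinted membrane protein gene of the developing brain, had 166.7 and 107.0 against 1131.4 to 2081.3, 11.5-fold lower. The bounds depend on the floor: with a floor of 23.5 they were 16.3-fold for Prkcb and 15.5-fold for Pcp4, and for the receptor genes described further on 10.8-fold for Gria3, 12.0-fold for Gria2 and 5.74-fold for Agtr1a. Prkcb and Nnat kept their calls without any 1 control. Lsamp had an adjusted p of 0.0533 without control 1, and Pcp4 lost its call without control 1 or control 2, with up to 0.0726.

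Markers of other cell types were few on the array. No oligodendrocyte or myelin probe set passed among the 10 tested in limma, where 2 had an unadjusted p under 0.05. Of the 10, 5 were higher and 2 lower without overlap, beside 18.8% and 16% of all tested. The 5 came from only 2 genes, as they were every tested probe set of Pdgfra and 1 of 2 probe sets of Mog. Mog had 106.7 and 119.4 against 38.9 to 104.0 on it. Cnp was among the lower ones, with 345.2 and 229.9 against 351.5 to 704.5. Pdgfra, the receptor that marks oligodendrocyte precursors and fibroblast-like cells, had 1063.7 and 808.3 against 136.6, 557.5, 389.1 and 318.2 on its brightest probe set, with a difference of 1.57 and a limma adjusted p of 0.142. Mbp, a myelin protein, had 32.0 and 99.1 against 28, 96.7, 98.6 and 93.2. In the fibroblast, meningeal and vascular list, 3 genes were measured with 9 probe sets, and the 2 called higher were both of Igf2, while the summed signal of 16450 and 37598 enclosed the 27092 to 32531 of controls 3 to 6. Collagen genes were not among the measured members. The part of other cell types in the differences was not tested. No gene of the cell cycle list was measured, and the only housekeeping gene, B2m, had a difference of 0.27.

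Few channel probe sets were called, and the largest difference of the comparison was among them. Cacna2d1, the alpha-2/delta subunit of voltage-gated calcium channels, had 19.3 and 6.0 against 956.6, 1426.5, 1475.8 and 1374.9. Control 2 was under the floor, and the difference was -6.47 ± 0.33 (SE) with a limma adjusted p of 9.35e-05, the largest of all. It was the only call among 45 tested probe sets of 23 genes of calcium and other cation channels, 2.22% beside 7.58% of all tested. The median of this list was -0.01. Its summed signal was 6217.4 to 7280.5 in controls 1 and 2 and 7306.7 to 7881.0 in controls 3 to 6. That sum includes Cacna2d1, whose own gap between the sets was wider than the gap between the sums. The summed signal of the sodium channel list was 1617.5 to 2002.3 against 2258.1 to 6430.0, also without overlap. That sum includes Scn7a, which did not pass. Its brighter probe set alone had more signal on controls 4 to 6 than the whole list on controls 1 and 2. In that list 0 probe sets were higher and 5 lower without overlap, beside 18.8% and 16% of all tested. Among 24 probe sets of 16 sodium channel genes only Asic2, an acid-sensing channel, was called, with 20.9 and 25.1 against 80.8 to 188.4, a difference of -2.26 that failed without control 1 or control 2 (adjusted p up to 0.119). The other Asic2 probe set was not called. Scn7a, an atypical sodium channel of glia, had 85.7 and 24.2 against 94.5 on control 3 and 2105.6 to 2395.4 on controls 4 to 6. These are the signals of its brighter probe set, which did not pass (limma adjusted p = 0.110). Nalcn, a sodium leak channel, had 73.8 and 160.8 against 145.6 to 263.5 on its brighter probe set and did not pass either. In the chloride and water channel list Clcn4 alone was called among 9 probe sets, at -1.77, and it lost the call without control 1, control 2 or control 5 (adjusted p up to 0.101).

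No potassium channel passed. Of 76 probe sets of 49 genes, limma called 0, and 5 had an unadjusted p under 0.05, beside 300 of all 1240. Without overlap 4 were higher and 11 lower, beside 18.8% and 16% of all tested, and the median was -0.16. The smallest p-values were those of Kcna5 (50.2 and 64.5 against 93.8 to 300.0, adjusted p = 0.0810), Kcnj14 (84.1 and 91.7 against 22.7 to 53.9, adjusted p = 0.108) and Kcnd3 (48.7 and 69.9 against 86.5 to 116.0, adjusted p = 0.110). The other 3 Kcnd3 probe sets overlapped between the sets.

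Of 24 glutamate receptor genes, Gria2, Gria3 and Grik5, subunits of the AMPA and kainate receptors that carry fast glutamate responses, were called lower in controls 1 and 2. They held 5 of the 42 probe sets, 11.9%, beside 7.58% of all tested, and the median was -0.14. The other AMPA and kainate subunits measured, Gria1, Gria4 and Grik1 to Grik4, did not pass. Gria3 had 10.2 and 5.1 against 214.7, 298.4, 262.2 and 244.7, at least 23.2-fold lower, for which limma gave an adjusted p of 9.35e-05. The second Gria3 probe set had -4.34. Both values were under the floor in controls 1 and 2, and the calls held without any 1 control. Gria2 had 8.5 and 9.7 against 642.3, 375.4, 195.3 and 136.2, at least 26.0-fold lower, with -2.98 on its other probe set. That probe set was lost without control 1, control 2 or control 3, with the higher floor and with the spread of all 18 arrays, with an adjusted p of up to 0.179. Grik5, a kainate receptor subunit, had 235.6 and 318.6 against 648.9 to 999.3, a difference of -1.59. The Gria2 probe set at the floor and Grik5 lost their calls without control 1 or control 2, and Grik5 also without control 5, with adjusted p-values of up to 0.0756 and 0.0911 and differences of -5.05 to -4.30 and -1.81 to -1.37.

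Of 59 tested probe sets of 44 monoamine and peptide receptor genes, 1 was called higher and 3 lower, a share of 6.78% near that of all probe sets. Agtr1a, an angiotensin receptor, had 73.8 and 246.9 against 2.0 to 7.8, all under the floor, and was at least 12.4-fold higher with a limma adjusted p of 0.00454. Adra1d, an alpha-1 adrenergic receptor, had 9.2 and 17.4 against 371.6, 203.0, 183.0 and 212.1, 16.9-fold lower. Agtr1a and Adra1d each had another probe set, which was not called. Adrb1, the beta-1 receptor, had 16.4 and 29.4 against 60.0 to 281.9, and Htr5b, a serotonin receptor, had 23.4 and 26.2 against 76.4 to 161.0. Adrb1 lost its call without any control other than control 3, and Htr5b without control 1, control 2 or control 5, with adjusted p-values of up to 0.255 and 0.148. Of 58 tested probe sets of 40 GABA, glycine and acetylcholine receptor genes only 1 of 3 probe sets of Gabbr2, a GABA-B receptor subunit, was called, at 1.71, and it lost the call without control 1 or control 2 (adjusted p up to 0.0924).

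**Figure D4:**
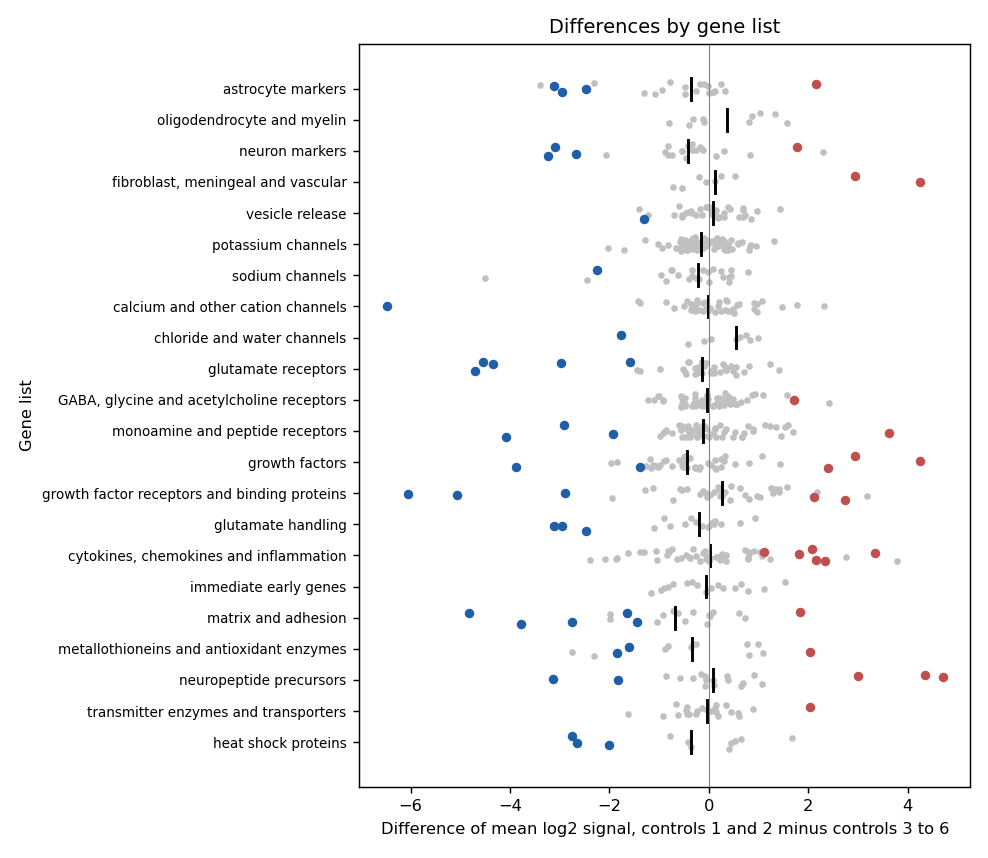
Difference of mean log2 signal between controls 1 and 2 and controls 3 to 6 for the tested probe sets of each gene list with at least 5 of them. Red and blue points were called higher and lower in controls 1 and 2 by limma, grey points were not called, and black bars are list medians, which lie between -0.67 (matrix and adhesion) and 0.55 (chloride and water channels).

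The growth factor gene Igf2 was called higher in controls 1 and 2, and Cntf was called lower. Of 43 probe sets of 20 growth factor genes, 3 were higher and 2 lower, 11.6% beside 7.58% of all tested, with a median of -0.43. Igf2, a fetal growth factor, had 3729.6 and 8043.0 against 532.5, 284.5, 220.2 and 211.2 on its brightest probe set, 18.9-fold higher with a limma adjusted p of 0.00329. A further Igf2 probe set was higher by 2.94. The remaining 4 Igf2 probe sets, with signals of 8.4 to 528.9, overlapped between the sets and did not pass. Cntf, which supports motor neurons and is made by astrocytes, had 118.0 and 126.3 against 1623.9, 1982.0, 1757.3 and 1891.5, 14.8-fold lower, and limma's adjusted p was 0.000134. Each set was tight for Cntf. The Igf2 and Cntf calls held without any 1 control.

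Ntf4, a neurotrophin, had 156.1 and 179.7 against 15.5 to 45.1, but its other probe set did not pass. Tgfa, a ligand of the EGF receptor, had 54.8 and 51.2 against 95.8 to 186.8. Ntf4 lost its call without control 1, control 2 or control 6 and Tgfa without any control other than control 4, with adjusted p-values of up to 0.156 and 0.184. Bdnf, another neurotrophin, had 193.1 and 266.6 against 243.1 to 484.3 on its brightest probe set. Of its 7 probe sets 3 dimmer ones were lower without overlap, with unadjusted p-values of 0.0297, 0.0453 and 0.0248, and none passed after adjustment. Fgf2 had 339.1 and 263.7 against 236.4 to 518.0 and did not pass.

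The carriers of insulin-like growth factors showed some of the widest gaps. Igfbp3 had 16.3 and 112.9 against 3529.2, 2738.5, 2891.3 and 2302.4, 66.0-fold lower, and limma's adjusted p was 0.00354. A second Igfbp3 probe set had -5.07. Igfbp5 had 142.0 and 180.3 against 585.1 to 1938.4, a difference of -2.89, on 1 of 2 probe sets, and the other was not called. Igfbp6 went the other way with 3439.9 and 1019.4 against 371.0 to 490.3, a difference of 2.12. Igfbp2, the brightest carrier, had 6721.8 and 17210.8 against 16390.0 to 19649.1, with control 1 alone below the other 5 arrays, and did not pass. Among 39 tested probe sets of 22 receptor and binding protein genes, 2 were higher and 3 lower, 12.8% beside 7.58% of all tested, with a median of 0.26. The other higher one was 1 of 2 probe sets of Tgfbr3, the betaglycan receptor, at 2.75. Ltbp2, a matrix protein of the family that binds latent TGF-beta, had 95.3 and 25.2 against 988.6 to 3133.6, 38.9-fold lower. Igfbp3 and Ltbp2 kept their calls without any 1 control, but their sizes rest on 2 unlike arrays. Without control 1 the differences were -4.65 for this Igfbp3 probe set and -6.24 for Ltbp2, and without control 2 they were -7.44 and -4.32. Igfbp5 lost it without control 1, 2 or 6, Tgfbr3 without control 1, 2 or 6, and Igfbp6 without any control other than control 2, with adjusted p-values of up to 0.132, 0.217 and 0.112 and differences of -3.23 to -2.65, 2.33 to 3.04 and 1.24 to 3.00.

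Neuropeptide genes differed in both directions. Of 20 probe sets of 14 precursor genes, 3 were higher and 2 lower, 25% beside 7.58% of all tested. Sst, the precursor of somatostatin, had 1424.9 and 643.5 against 42.7, 43.9, 30.1 and 32.6, 26.0-fold higher, and limma's adjusted p was 0.000826. A second Sst probe set was higher by 2.99. Gal, the precursor of galanin, had 359.0 and 393.0 against 53.5, 11.8, 15.6 and 11.6, with control 3 the highest of its set, 20.4-fold higher. Npy had 69.4 and 23.8 against 207.6 to 668.3, and Penk, the enkephalin precursor, had 232.1 and 578.1 against 1053.6 to 1594.6 on 1 of 2 probe sets. Sst kept its call without any 1 control, Gal lost it without control 1 or control 2 (adjusted p up to 0.0916), Npy without control 1, 2, 3 or 6 (up to 0.158) and Penk without any control other than control 2 (up to 0.149). In the list of transmitter enzymes and transporters only Tph1, a serotonin-synthesis enzyme, was called among 23 tested probe sets, with 43.4 and 56.2 against 8.7 to 14.7. Its difference of 2.03 was 1.07 with the higher floor.

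Inflammation genes that passed were all higher in controls 1 and 2. Of 55 tested probe sets of 36 genes, 6 were higher and 0 lower, 10.9% beside 7.58% of all tested. The median of the list was 0.02, and 14 had an unadjusted p under 0.05 in limma, beside 300 of all 1240. Cx3cl1, the membrane-bound chemokine fractalkine, had 731.3 and 679.7 against 51.0, 139.0, 68.4 and 47.5 on 1 of its 4 probe sets, 10.2-fold higher with a limma adjusted p of 0.00642. Il18, a cytokine of the interleukin-1 family, had 764.3 and 743.2 against 153.7 to 239.0, a difference of 2.08. Nfkb1, a subunit of NF-kappaB, had 2594.5 and 2262.8 against 1086.2 to 1161.7, and Ptgs2, which encodes the cyclooxygenase that inflammation induces, had 1407.4 and 762.1 against 171.5 to 398.1. Of the 2 called probe sets of Cx3cl1, the one at 2.33 kept its call without any 1 control, and the one above lost it without control 1 or control 2 (adjusted p up to 0.0795). Of the 2 called probe sets of Il18, the one at 2.08 kept its call, and the one at 1.81 lost it without control 1, 2, 5 or 6 (up to 0.142). Nfkb1 and Ptgs2 lost theirs without any control other than control 3, with adjusted p-values of up to 0.0854 and 0.197 and differences of 1.00 to 1.20 and 1.71 to 2.59. Ccl5, a chemokine for T cells and monocytes, had 1496.3 on control 1 and 24.2 on control 2 against 11.4 to 17.3, and did not pass.

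Stress-response genes also differed. The small heat shock protein gene Hspb1 was lower on all 3 probe sets, with 1273.8 and 1792.8 against 9913.7, 8216.3, 11991.2 and 11234.9 on one of them, a difference of -2.76 ± 0.27 (SE) with a limma adjusted p of 0.00167. These were the only calls among 11 heat shock probe sets, 27.3% beside 7.58% of all tested, and they held without any 1 control. Sod3, the secreted superoxide dismutase, was lower by 1.86 and 1.62 on 2 probe sets, and Sod2, the mitochondrial one, was higher by 2.04. These were the calls among 14 probe sets of metallothionein and antioxidant genes, 21.4% beside 7.58% of all tested. Sod2 and Sod3 lost their calls without control 1, 2, 5 or 6, and Sod2 also without control 4, with adjusted p-values of up to 0.246 and 0.205. None of 17 immediate early gene probe sets passed in limma, and 2 had an unadjusted p under 0.05. Fos, an AP-1 subunit, had 517.2 and 1270.0 against 1164.5 to 2182.4, a difference of -1.17. Egr1 and Nr4a3 went the other way. Egr1 had 5618.7 and 2170.3 against 1010.8 to 2211.0, a difference of 1.10. Nr4a3 had 201.0 and 72.9 against 27.0 to 80.4, a difference of 1.54. Each of these genes overlapped between the sets on the probe set given.

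Of the genes in no list, Ctsk, the matrix-degrading protease cathepsin K, had 1567.6 and 1519.7 against 115.8 to 193.8, 9.55-fold higher with a limma adjusted p of 0.00117. Serpine2, which inhibits thrombin and is secreted by glia, had 4585.9 and 4906.0 against 719.1 to 1241.6, 5.46-fold higher. Both calls held without any 1 control. The other genes called higher were Atp2b2, Calcrl, Ghr, Jak1, Lepr, Map3k1, Smad1, Tnfrsf1a and Tspo, and the other genes called lower were Cit, Ckb, Ctnnd2, Nog, Nrxn2, Nxph1 and Slc2a1. Of these, Ckb, the brain creatine kinase, and Ghr, the growth hormone receptor, kept their calls without any 1 control, with differences of -2.67 and -2.48 on 2 probe sets of Ckb and of 2.28 for Ghr. Ghr and the Ckb probe set at -2.67 lost them with the spread of all 18 arrays (adjusted p 0.0943 and 0.0637). Calcrl lost its call whichever of the 6 controls was left out and had a difference of 0.0446 with the higher floor, and Atp2b2, which lost its call without any 1 of controls 2 to 6, had 0.32 there.

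Controls of 1 label also differed among themselves, for which no test was made. Between controls 1 and 2, 233 of the 1240 probe sets differed by over 2-fold. Control 1 was far above control 2 for Ccl5, for Fosl1, an AP-1 subunit (1731.9 and 61.1), for Ppp3cb, a calcineurin subunit (104.3 and 3.5), for Syt4, a synaptotagmin (183.3 and 9.1), and for S100b. Control 2 was far above control 1 for C4b, a complement component (1493.6 and 148.0), Kif2c, a kinesin (195.9 and 8.3), Itpr1, the calcium release channel (113.4 and 10.4), Il1b (81.3 and 10.5) and Syp, a vesicle protein (273.5 and 36.6).

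Control 3 departed from controls 4 to 6 in some of the same glial genes. It was lower for the metallothionein Mt2A, at 516.4 against 12608.9 to 16156.3, where controls 1 and 2 had 1798.4 and 461.3. It was lower for the sodium channel Scn7a and for Apoe (583.4 against 4549.5 to 5972.9 on the other probe set), and also for Fez1, a protein of axon growth (16 against 126.5 to 555.1), and Vcam1, an adhesion molecule (8.4 against 123.3 to 288.3). It was higher for Tgfb3, a TGF-beta ligand (12385.8 against 2669.9 to 3695.0), for Gal, and, among dim genes, for Ifng (82.1 against 8.2 to 44.3), Calcrl (56.1 against 4.6 to 13.1) and a Kcnd3 probe set (88.8 against 8.8 to 42.9). For Mt2A, Apoe and Fosl1, control 3 thus lay with control 2 rather than with the arrays of its own label. Without control 3 limma called 109 probe sets between the sets, 82 of them among the 94.

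The exposed arrays were then set against each control set in a model of all 18 arrays with 6 groups. At 12 hours, 0 of 1240 probe sets (0%) passed against controls 1 and 2, with 82 at an unadjusted p under 0.05, and 319 (25.7%) passed against controls 3 to 6. At 5 days the order was the other way, with 146 (11.8%) against controls 1 and 2, and 0 (0%) against controls 3 to 6, where 94 had an unadjusted p under 0.05. At 1 day 1 (0.0806%) and 56 (4.52%) passed, and at 3 days 3 (0.242%) and 1 (0.0806%). These comparisons share arrays, and the sets hold 2 and 4 arrays, so the counts also differ in power. The arrays at 1 day and at 3 days also differed among themselves, so their counts are no measure of closeness to either set. The difference between the 2 folds of 1 exposure time is the difference between the control sets themselves, which in this model passed for 121 probe sets.

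**Figure D5:**
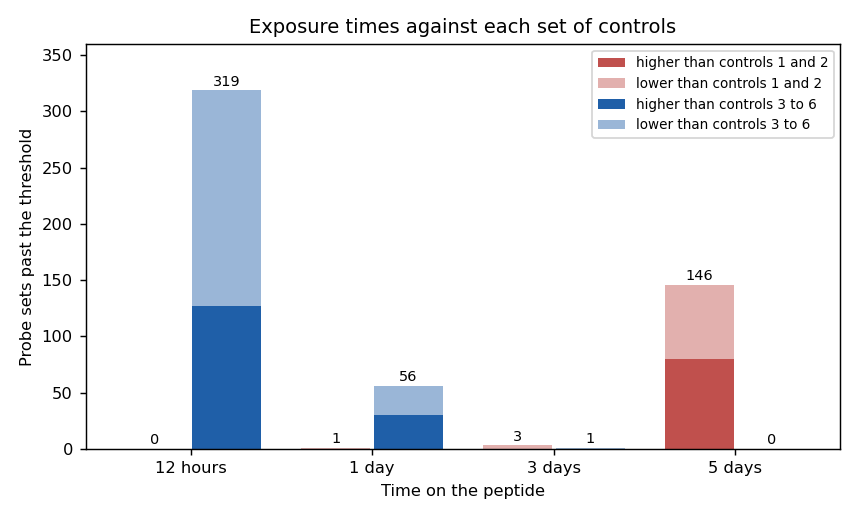
Number of probe sets past an adjusted p of 0.05 in limma for each time on the peptide against controls 1 and 2 (red) and controls 3 to 6 (blue), with darker bars for higher and paler bars for lower on the peptide. The counts are 0 and 319 at 12 hours, 1 and 56 at 1 day, 3 and 1 at 3 days, and 146 and 0 at 5 days.

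Foxd1, Cacna2d1 and Cntf, taken from the largest differences between the control sets, showed the same order at 12 hours and 5 days. Other named genes did not all follow it. At 12 hours Ptgs2 had 2194.7 to 2486.7, above all 6 controls. Kcna5, which was not called, had 113.5 to 210.9 there, inside the range of controls 3 to 6. Foxd1 had 1620.3 to 1772.5 on the arrays at 12 hours and 27.3 to 35.3 at 5 days, beside 1807.5 and 1942.8 on controls 1 and 2 and 27.8 to 38.2 on controls 3 to 6. At 3 days 1 array had 3445.2 and the median was 75.2, and at 1 day 1 array had 2102.8 and the median was 248.5. Cacna2d1 had 4.3 to 9.7 at 12 hours and 905.3 to 980.7 at 5 days. Cntf had 105.2 to 130.9 at 12 hours and 1546.2 to 1667.8 at 5 days. Over all probe sets, Pearson's r with the 3 arrays at 12 hours was 0.97 to 0.98 for control 1, 0.93 to 0.94 for control 2 and 0.86 to 0.88 for controls 3 to 6. With the 3 arrays at 5 days it was 0.84 to 0.86 for controls 1 and 2, 0.92 to 0.93 for control 3 and 0.95 to 0.97 for controls 4 to 6. Single arrays at the times between varied more. For control 2, r ran from 0.88 to 0.96 at 1 day and from 0.86 to 0.95 at 3 days, with medians of 0.88 and 0.87. For control 3 it ran from 0.87 to 0.92 and from 0.87 to 0.96, with medians of 0.92 and 0.96.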

How the data were processed

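Total RNA of cultured rat cells was measured on 18 arrays of 1322 probe sets, 6 of them of unexposed cells. The deposited table gives 1 linear signal intensity per probe set and array. The scaling method and its software were not given in the sources used here. The authors' scaling was kept. Signals were raised to a floor of 10.9 before log2. The 59 AFFX probe sets were left out, and no other filter was used. Symbols came from the platform annotation: of 1263 probe sets 1137 had 1 symbol, 8 several and 118 none, and 1132 matched the reference gene table, with 0 symbols changed.

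Controls were grouped by source label and fitted with lmFit and eBayes of limma 3.58.1 under R 4.3.3 (4 residual degrees of freedom, median residual SD 0.418), two-sided, with Benjamini-Hochberg adjustment over 1240 probe sets and a threshold of 0.05. On simulated data of this design limma called 28.3% of features that differed by 1 on the log2 scale, 72.8% at 2, 84.7% at 3, and 0.43% of unchanged ones. The exposed arrays entered a second model with 6 groups. Alternatives were other scalings, floors, a filter, a variance trend, the spread of all 18 arrays, and each control left out.

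The members and the 25 gene lists (402 measured genes) were chosen with earlier results of these data known. Genes were named by rule: the 12 largest called differences without overlap in each direction, up to 4 called members of each list or the 3 with the smallest p, a set of glial, neuronal and growth factor genes, and the 5 largest differences in each direction between controls 1 and 2 and between control 3 and controls 4 to 6. Values of Rest, Pou3f3, Ckb, Ghr, Calcrl and Atp2b2 and of probe sets without a symbol were added after they were seen. Where all arrays of a set were at the floor, a fold is against the floor and written as at least that size. Folds of genes near the floor are understated.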

Additional observations from a re-analysis of the deposited data

Results flagged for a closer look

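Within controls 3 to 6, 1 array stood apart from the other 3 in 17 of the 129 probe sets named by rule, by Dixon's criterion on the log2 values, which flags about 5% of groups by chance. Over all 1240 tested probe sets the criterion was met by 134 (10.8%), of which control 3 was the array apart in 61, control 6 in 36, control 4 in 23 and control 5 in 14. Some of the named genes had been chosen for a large difference of control 3, so their share is not independent of the choice.

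Control 3 was low for Apoe (583.4 on probe set S76779_s_at), Cacna2d1 (956.6 against 1374.9 to 1475.8), Fos (1164.5 against 2003.7 to 2182.4), Fosl1 (81.1 against 437.6 to 574.8), Foxd1 (27.8 against 36.4 to 38.2), a Glul probe set (1211.9 against 2208.4 to 2409.6), Mbp (28 against 93.2 to 98.6), Mt2A (516.4), Scn7a (94.5), Slc1a2 (36.5 on probe set U15098_at) and Slc1a3 (492.9 against 1500.7 to 1687.9 on probe set S75687_s_at). It was high for Calcrl (56.1) and an Igf2 probe set (105.6 against 43.6 to 49.0). Control 6 was high for Htr5b (161.0 against 76.4 to 80.2). Control 5 was low for Ntf4 (15.5 against 38.1 to 45.1) and for a dim Slc1a2 probe set (24.4 against 38.1 to 38.8). Control 4 was high for a Snap25 probe set, at 18.1, on which the other 3 arrays were under the floor. For Cacna2d1, Foxd1 and Slc1a3 the 2 sets of controls were still separate.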

How the results depend on the processing

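No paired analysis was possible because the 2 sets of controls share no replicate number. No called probe set changed direction in any of the 14 alternatives, and 30 of the 94 calls passed in all of them. The count of calls was 90 to 131 under the other scalings, floors, filter, variance trend and the spread of all 18 arrays. Of the main calls, 86 to 93 were kept in these settings, except 62 with the spread of all 18 arrays, where 121 were called. With a variance trend 60 probe sets were higher. Leaving out 1 control gave 55 to 109 calls, with 23 to 42 higher and 32 to 67 lower. Differences that were never called changed sign for a few genes. The brightest Glul probe set had -0.11 with cyclic loess and -0.52 to 0.54 with 1 control left out, and the ranges with 1 control left out were -0.0781 to 0.19 for Itgam U59801_at, -1.14 to 0.49 for Mbp, -0.80 to 0.28 for the brighter Nefl probe set and -0.25 to 0.27 for the Slc1a2 probe set. The median of the oligodendrocyte list was -0.09 with a lower floor and 0.80 with a higher floor, and that of the fibroblast list was -0.61 without control 2. The causes were not tested. With 2 arrays in one set, changes of log2 0.5 were called in 2% of simulated cases.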
